A study of Mus musculus with 4 samples.

Results

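The genes described here encode the nuclear-made parts of the mitochondrial respiratory chain and of ATP synthase. They were taken by symbol from the platform annotation: every gene named alone by a probe set and beginning with Nduf (complex I), Sdha to Sdhd (complex II), Uqcr (complex III), Cox4 to Cox8 (complex IV) or Atp5 (ATP synthase). The rule found 94 genes on 185 probe sets, of 18193 genes that the arrays name alone. Of these, 90 genes passed a filter on low signal and were tested, of 12952 genes tested in all. Sorted by role, they held 82 subunits, of which 78 were tested, and 12 assembly factors, all tested.

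Complex I takes electrons from NADH, and complex II takes them from succinate, the substrate it shares with the tricarboxylic acid cycle. Complex III passes them to cytochrome c, complex IV hands them to oxygen, and ATP synthase uses the proton gradient that complexes I, III and IV build up. Most subunits come from nuclear genes and are imported into the mitochondrion; the catalytic core of complex IV and several membrane subunits come from mitochondrial DNA and are not covered by these symbols. In the developing forebrain, neural precursors are known for strong glycolysis, and a larger part for oxidative phosphorylation is described for the neurons they form.

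The cells were neuroepithelial cells, the dividing precursors of neurons and glia, taken from the telencephalon of ICR mouse embryos. In the later group (2 arrays) the embryos were at embryonic day 14.5 (E14.5) and the cells spent 4 days in culture. In the earlier group (2 arrays) the embryos were at embryonic day 11.5 (E11.5) and the cells spent 1 day in culture. Both groups grew in N2-supplemented medium with 10 ng/ml basic FGF on poly-ornithine and fibronectin, and no other agent or allele is named. Embryonic age and time in culture changed together, so they cannot be told apart. The labels do not say whether the 2 arrays of a group came from separate cultures or embryos, so every p-value measures only the spread between arrays, which may be technical.

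Before scaling, the 2% trimmed mean signal was 154 and 103 on the E14.5 arrays, against 187 and 252 on the E11.5 arrays. Each array was multiplied by 1 factor to a common trimmed mean, and all signals below are on that linear scale. After scaling, log2 signals correlated across probe sets at 0.969 between the E14.5 arrays and 0.975 between the E11.5 arrays. Between arrays of different groups the correlation ran from 0.885 to 0.909. All 11 neural progenitor markers were above the filter, 5 called higher at E14.5 and 1, Pax6, called lower, beside 14.3% and 13.6% of all genes. Their summed signals were 34761 and 36034 at E14.5 and 23209 and 21515 at E11.5. In bulk RNA, a change in the number of cells of a type cannot be told apart from a change in RNA per cell.

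Differences below are log2 of E14.5 minus E11.5, taken after each signal was raised by 12.8 (the pseudocount), with standard errors from limma (n = 2 arrays per group throughout). A gene was called when its adjusted p was at most 0.05, with Benjamini-Hochberg adjustment over all probe sets tested. Signals of different probe sets cannot be ranked against each other, so levels are compared only between arrays for the same gene. A log2 difference of a gene with a signal near the pseudocount is smaller than the ratio of its signals.

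Transcripts for subunits of each of the 5 complexes were called higher in E14.5 cells. None of the 12 assembly factors, which serve only complexes I and II, was called, beside 14.3% of all genes called higher and 13.6% lower. Of 16 assembly factors of cytochrome oxidase, which lie outside the rule, 5 were called higher. Of the 90 genes tested, 50 were called higher, against 14.3% of all genes tested, and 1 was called lower, against 13.6%. The remaining 39 did not pass. The median difference was 0.43, beside 0.03 over all genes tested, and the values ran from -0.74 to 1.07. The 2 E14.5 signals lay above both E11.5 signals for 69 genes (34.6% of all genes) and below both for 3 (31.0%). On the log2 scale with the pseudocount only Uqcr10 was at least 2-fold higher, and the standard errors of called genes ran from 0.112 to 0.217. At an unadjusted p under 0.05, 59 genes were higher and 2 lower, and the share of all genes at that threshold was not counted. The higher calls numbered 29 without the first E14.5 array (12.3% of all genes) and 32 without the second (10.9%). With no trend of variance on signal in the fit, 10 of the 90 were called higher, a share close to the 8.88% of all genes under that setting.

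The promoters of 6 of these genes are shown. They include the 3 genes for the c subunit of ATP synthase, of which 2 were called higher and 1 was not. The others are 3 subunits called higher from complexes I and IV. Sequences are from RefSeq, build GRCm38.p6, each running 5′ to 3′ on the strand of its gene from 250 bases before the transcription start to 50 after it. Capitals mark matches, on either strand, to the motif of NRF1 (GCGCA and GCGC with 1 base of any kind between them), the ETS motif that GABPA binds (CCGGAAG), the motif of YY1 (AANATGGC) or that of the estrogen-related receptors (TNAAGGTCA), factors known for regulating nuclear genes of the respiratory chain.
Atp5g2, chr15:102670998-102671297, minus strand: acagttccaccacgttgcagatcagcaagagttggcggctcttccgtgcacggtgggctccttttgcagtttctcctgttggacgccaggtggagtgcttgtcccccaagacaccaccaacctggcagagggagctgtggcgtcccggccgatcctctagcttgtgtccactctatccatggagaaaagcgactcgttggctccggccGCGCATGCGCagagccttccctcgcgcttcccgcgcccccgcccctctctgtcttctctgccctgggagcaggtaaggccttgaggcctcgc
Atp5g3, chr2:73911277-73911576, minus strand: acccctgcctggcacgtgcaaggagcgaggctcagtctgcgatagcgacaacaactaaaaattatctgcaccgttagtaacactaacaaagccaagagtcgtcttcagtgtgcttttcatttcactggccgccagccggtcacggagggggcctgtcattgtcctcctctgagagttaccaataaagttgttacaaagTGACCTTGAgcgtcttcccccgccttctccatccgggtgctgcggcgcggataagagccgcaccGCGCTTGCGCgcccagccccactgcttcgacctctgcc
Atp5g1, chr11:96075582-96075881, minus strand: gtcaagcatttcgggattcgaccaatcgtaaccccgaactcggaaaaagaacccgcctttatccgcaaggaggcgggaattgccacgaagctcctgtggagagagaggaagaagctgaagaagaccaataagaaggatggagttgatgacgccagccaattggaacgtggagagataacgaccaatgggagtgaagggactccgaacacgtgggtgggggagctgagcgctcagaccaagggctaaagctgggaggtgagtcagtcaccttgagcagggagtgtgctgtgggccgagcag
Ndufs8, chr19:3912725-3913024, minus strand: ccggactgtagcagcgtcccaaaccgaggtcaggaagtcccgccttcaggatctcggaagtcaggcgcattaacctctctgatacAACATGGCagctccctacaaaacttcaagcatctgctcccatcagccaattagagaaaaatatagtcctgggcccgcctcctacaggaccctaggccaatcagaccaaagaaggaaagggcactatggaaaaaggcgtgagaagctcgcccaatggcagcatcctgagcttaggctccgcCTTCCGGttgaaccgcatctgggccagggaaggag
Cox8a, chr19:7217567-7217866, minus strand: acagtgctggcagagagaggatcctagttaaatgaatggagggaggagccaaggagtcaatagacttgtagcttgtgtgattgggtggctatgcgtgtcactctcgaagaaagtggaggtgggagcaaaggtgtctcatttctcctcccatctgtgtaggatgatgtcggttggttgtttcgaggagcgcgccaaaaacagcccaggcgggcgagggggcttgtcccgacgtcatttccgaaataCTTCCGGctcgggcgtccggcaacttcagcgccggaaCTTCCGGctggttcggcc
Cox6a1, chr5:115348909-115349208, minus strand: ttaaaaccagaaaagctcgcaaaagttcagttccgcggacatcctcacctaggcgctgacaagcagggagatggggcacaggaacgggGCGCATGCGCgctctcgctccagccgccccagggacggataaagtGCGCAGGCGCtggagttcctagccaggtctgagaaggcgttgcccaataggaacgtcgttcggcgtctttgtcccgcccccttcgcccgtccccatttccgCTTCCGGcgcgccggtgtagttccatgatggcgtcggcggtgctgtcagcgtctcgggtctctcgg

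The Atp5g2 window held an NRF1 match that reads on both strands, and the Atp5g3 window held an NRF1 and an estrogen-related receptor match. The Atp5g1 window held none of the 4 motifs. Ndufs8 had 1 ETS and 1 YY1 match, Cox8a had 2 ETS matches, and Cox6a1 had 2 NRF1 matches and 1 ETS match. These 3 do not stand for all genes called higher. The windows of Uqcr10, Cox7a2l, Ndufc2 and Ndufa10, also called higher and not shown, held none of the 4 motifs. A promoter window was at hand for 78 of the 94 genes. The NRF1 motif was in 19 of these 78 (24.4%), against 5.19% of the 27025 genes of the promoter table. The ETS motif was in 22 (28.2%, against 9.93%), the YY1 motif in 18 (23.1%, against 6.96%) and the estrogen-related receptor motif in 3 (3.85%, against 1.43%). Within the set, the NRF1 motif was in 12 of 43 genes called higher (27.9%) and in 6 of 32 tested genes not called higher (18.8%). For the ETS motif the counts were 12 of 43 (27.9%) and 10 of 32 (31.2%), and for the YY1 motif 8 of 43 (18.6%) and 10 of 32 (31.2%). These are matches of letters in a window and were not tested against the array values. The promoter table was not limited to genes tested on the arrays or to genes of like signal, so its shares are not a matched background.

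**Figure D1:**
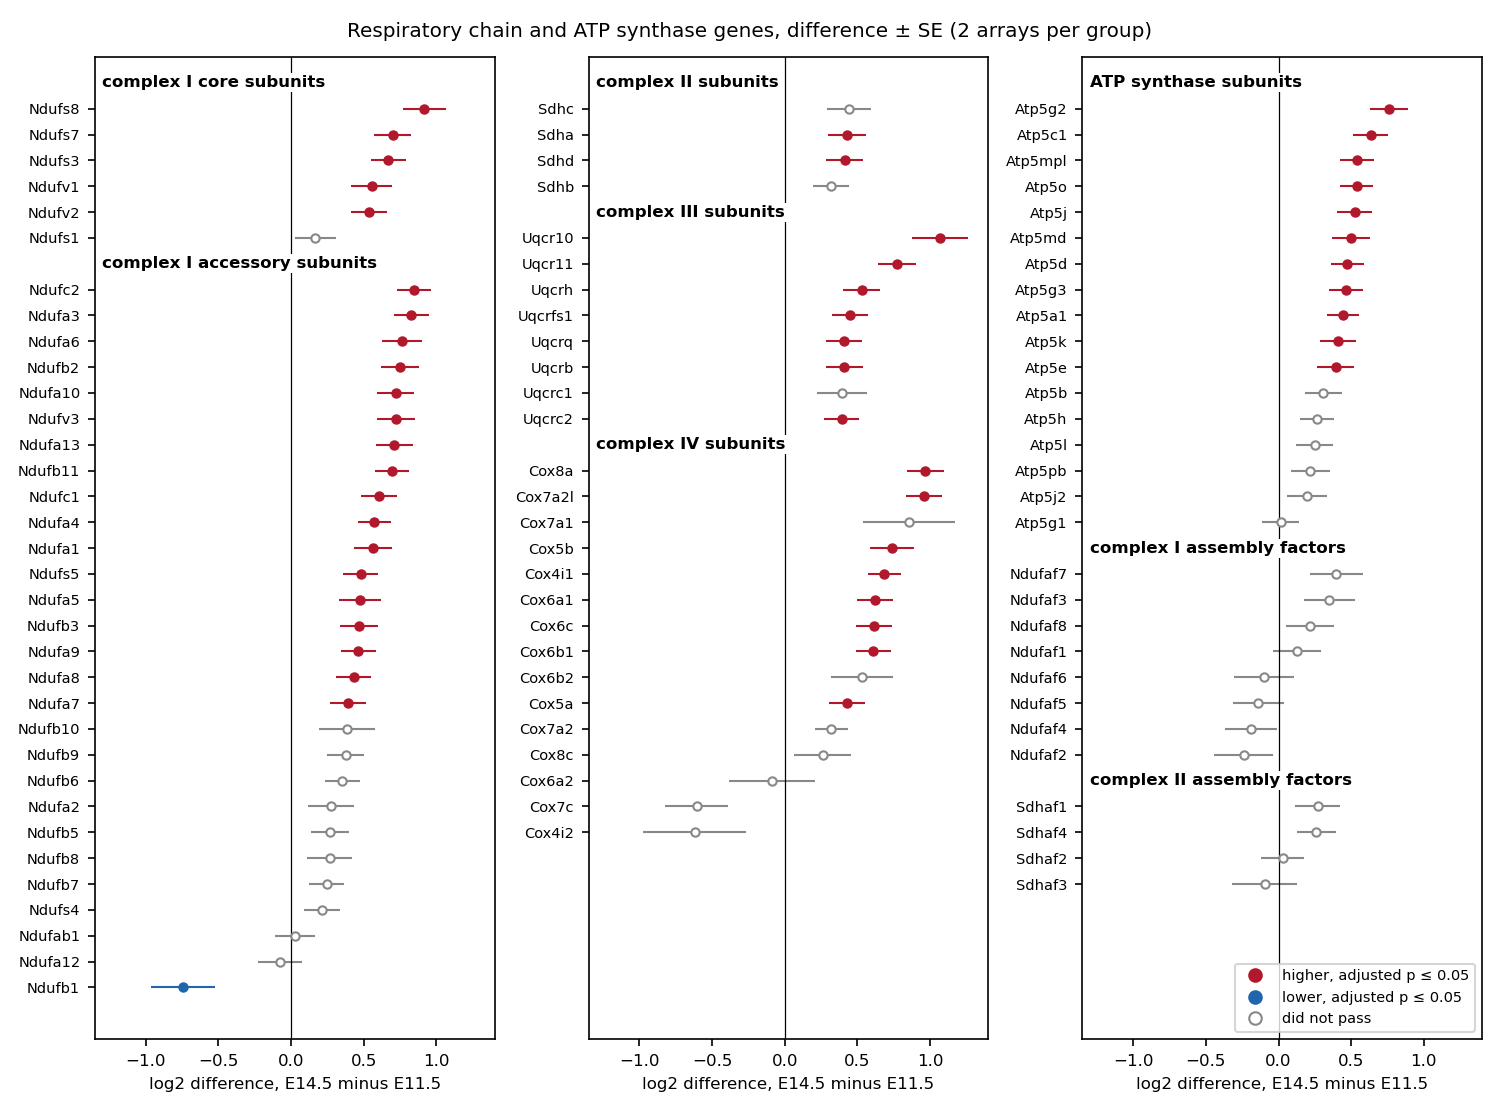
Log2 difference, E14.5 minus E11.5, with its standard error (2 arrays per group) for each of the 90 tested genes, sorted within its complex. Filled points passed an adjusted p of 0.05 in limma: 50 lie to the right of 0 and Ndufb1 lies to the left. None of the 12 assembly factors, all of complexes I and II, is filled.

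In complex I, sorted by symbol and so with Ndufa4 among its accessory subunits, 22 of 34 tested subunits were called higher and 1 lower. Of its core subunits, which carry the flavin and the iron-sulfur clusters and are shared with bacteria, 5 of 6 were called higher, with a median difference of 0.61. Ndufs8, an iron-sulfur subunit of the module that reduces quinone, had signals of 4018 and 4303 on the E14.5 arrays and 2537 and 1902 on the E11.5 arrays, a difference of 0.92 ± 0.15 (adjusted p = 0.00155). Its groups did not overlap, and its difference was the largest in complex I by the chosen probe sets. Of its 6 probe sets, 3 were called higher, and averaging them gave 0.55. The chosen one can cross-hybridize: the brightest of its unique probe sets gave 0.48 ± 0.18 and was not called (adjusted p = 0.0788). Another unique one was called at 1.06 ± 0.17 (adjusted p = 0.00161), and a dim one was at -0.37 ± 0.36. Ndufs7, which holds the last iron-sulfur cluster before quinone, was at 1645 and 1871 in E14.5 cells and 1103 and 1050 in E11.5 cells (0.70 ± 0.13, adjusted p = 0.00321). Ndufs3, a core subunit of the same module, was at 2382 and 2312 in E14.5 cells and 1498 and 1442 in E11.5 cells (0.67 ± 0.12, adjusted p = 0.0026).

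At the tip of the arm, Ndufv1, which binds NADH and flavin, differed by 0.55 ± 0.14, and its partner Ndufv2 by 0.54 ± 0.12; both were called higher. Without the second E11.5 array or without the first E14.5 array Ndufv1 was not called, and Ndufv2 was not called without the second E14.5 array. Ndufs1, the largest iron-sulfur subunit of the arm, did not pass. It was at 1073 and 894 in E14.5 cells and 880 and 862 in E11.5 cells (0.17 ± 0.14, adjusted p = 0.444), and the groups came close to each other without overlap.

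The accessory subunits surround the core and are needed to assemble or steady it. Of 28 tested, 17 were called higher and 1 lower, with a median difference of 0.47. Ndufc2 had signals of 5131 and 4917 in E14.5 cells and 2735 and 2841 in E11.5 cells, a difference of 0.85 ± 0.11 (adjusted p = 0.000527). The chosen probe set can cross-hybridize, and the unique probe set of Ndufc2 gave 0.39 ± 0.13 and was not called (adjusted p = 0.0511). Ndufa3 was at 3944 and 4322 in E14.5 cells and 2443 and 2201 in E11.5 cells (0.83 ± 0.12, adjusted p = 0.000895). In both genes the pairs of arrays were far apart relative to the gap within a pair.

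Ndufa6 (0.76 ± 0.14), Ndufb2 (0.75 ± 0.13), Ndufa10 (0.72 ± 0.13), Ndufv3 (0.72 ± 0.13), Ndufa13 (0.71 ± 0.12) and Ndufb11 (0.69 ± 0.12) followed. Ndufa13 is also known as GRIM-19, a protein studied for its part in cell death. Ndufa1, which lies on the X chromosome and is needed for the membrane arm, was called at 0.56 ± 0.13, and Ndufa4, once assigned to complex I and now counted with complex IV, at 0.57 ± 0.11. The other 7 called higher (Ndufc1, Ndufs5, Ndufa5, Ndufb3, Ndufa9, Ndufa8 and Ndufa7) lay between 0.39 and 0.61. Of the genes in this paragraph, Ndufa1, Ndufs5, Ndufb3 and Ndufa9 lost the call without the second E14.5 array, and Ndufa5, Ndufa8 and Ndufa7 lost it without either E14.5 array or the second E11.5 array. Ndufs5 and Ndufa9 lost it without the first E14.5 array too, and Ndufb3 without the second E11.5 array. The class had 10 called higher without the second E14.5 array.

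Of the 28 accessory subunits tested, 10 did not pass, with differences from -0.07 for Ndufa12 to 0.38 for Ndufb10. The difference was above 0 for 26 of the 28. Ndufab1, the mitochondrial acyl carrier protein, was at 2027 and 1786 in E14.5 cells and 2048 and 1705 in E11.5 cells (0.03 ± 0.14, adjusted p = 0.921), so its groups overlapped fully. Ndufa12 was at 2032 and 1933 in E14.5 cells and 2420 and 1801 in E11.5 cells (-0.07 ± 0.15, adjusted p = 0.776), with overlap set by the spread of the E11.5 arrays. Other probe sets of Ndufa12 gave 0.09 ± 0.13 and 0.10 ± 0.13, neither called. Ndufb1 was the only gene called lower, at 74.1 and 97.4 in E14.5 cells and 153 and 149 in E11.5 cells (-0.74 ± 0.22, adjusted p = 0.0322). Its call was lost when either E11.5 array or the first E14.5 array was left out, and it had only 1 probe set, a dim one. Of the 71 subunits with a mean of at least 500 in both groups, 0 were called lower and 70 had a difference above 0. Ndufb4 and Ndufa4l2, a hypoxia-induced relative of Ndufa4, had signals of at most 39.3 on any array and failed the filter.

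In complex II, the succinate dehydrogenase, differences of the chosen probe sets were 0.32 to 0.44 over the 4 subunits, and 2 of them were called. Sdha, the flavoprotein that oxidises succinate, was at 2551 and 2155 in E14.5 cells and 1730 and 1754 in E11.5 cells (0.43 ± 0.13, adjusted p = 0.0375). Sdhd, a membrane anchor, was at 1975 and 1885 in E14.5 cells and 1526 and 1373 in E11.5 cells (0.41 ± 0.12, adjusted p = 0.0372). The other anchor, Sdhc (0.44 ± 0.15, adjusted p = 0.0574), and the iron-sulfur subunit Sdhb (0.32 ± 0.12, adjusted p = 0.0931) did not pass, although the groups of all 4 genes did not overlap. Other probe sets differed: a second one for Sdhc was called higher at 0.84 ± 0.12 (adjusted p = 0.000859), and a second one for Sdha at 0.82 ± 0.13 (adjusted p = 0.00114). The second one for Sdhd was smaller, 0.30 ± 0.20, and was not called (adjusted p = 0.315). Of the chosen probe sets, neither call survived every omission of an array. Sdha was lost without the first E14.5 array, and Sdhd without any of 3 arrays, the exception being the first E11.5 array.

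In complex III, 7 of 8 subunits were called higher, with a median of 0.43. Uqcr10, a small subunit of the membrane part, had signals of 2240 and 2450 in E14.5 cells and 1403 and 876 in E11.5 cells. Its difference of 1.07 ± 0.19 (adjusted p = 0.00292) was the largest of all 90 genes, and the E11.5 arrays stood apart from each other. Without the first E11.5 array the difference was 1.41, and without the second it was 0.73; it was called both times. Uqcr11, another small subunit, was at 2476 and 2139 in E14.5 cells and 1401 and 1280 in E11.5 cells (0.78 ± 0.13, adjusted p = 0.00194).

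Uqcrh, the hinge protein that helps cytochrome c dock, differed by 0.53 ± 0.13, and Uqcrfs1, the Rieske iron-sulfur protein, by 0.45 ± 0.12. Uqcrb, a quinone-binding subunit, was at 8039 and 8250 in E14.5 cells and 6747 and 5573 in E11.5 cells (0.41 ± 0.13, adjusted p = 0.041). Under quantile normalization its difference was -0.03. Of the core proteins, Uqcrc2 was called (0.39 ± 0.12, adjusted p = 0.0376) and Uqcrc1 was not (0.39 ± 0.17, adjusted p = 0.131), with the same size of difference and a wider spread. Second probe sets gave -0.07 ± 0.13 for Uqcrb and -0.03 ± 0.16 for Uqcrc2, neither called, while that of Uqcrh was called higher at 0.79 ± 0.12 (adjusted p = 0.000935). The call of Uqcrc2 was lost whichever array was left out, and those of Uqcrfs1, Uqcrq and Uqcrb without the second E11.5 array or either E14.5 array. Uqcrh lost its call without the first E14.5 array, which left 2 of the 8 called; 4 were called without the second E14.5 array and 3 without the second E11.5 array.

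Complex IV, the cytochrome oxidase, had 8 of 15 tested subunits called higher and none called lower, with a median of 0.61. At an unadjusted p under 0.05 the lower genes of the whole set numbered 2, Ndufb1 and the complex IV gene Cox7c. Several subunits of cytochrome oxidase come in alternative isoforms, one made in most tissues and one kept to heart, skeletal muscle, lung or testis. Cox8a, the widely made form of the smallest subunit, had signals of 6089 and 7178 in E14.5 cells and 3575 and 3188 in E11.5 cells, a difference of 0.97 ± 0.13 (adjusted p = 0.000489). Cox4i1, the widely made form of a subunit that binds ATP, was at 5788 and 5984 in E14.5 cells and 3696 and 3618 in E11.5 cells (0.68 ± 0.11, adjusted p = 0.00169). For both genes the arrays of a group agreed closely and the groups were far apart.

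Cox7a2l, a relative of the Cox7a subunits that tethers complexes III and IV into supercomplexes, was at 2421 and 2675 in E14.5 cells and 1262 and 1350 in E11.5 cells. Its difference of 0.96 ± 0.12 had the smallest adjusted p of the set (0.000412), and its 3 probe sets gave 0.96, 1.01 and 1.03. Cox5b, a zinc-binding subunit, was at 6501 and 6614 in E14.5 cells and 4616 and 3353 in E11.5 cells (0.74 ± 0.15, adjusted p = 0.00598), its E11.5 arrays further apart than its E14.5 arrays. Cox6a1 (0.62), Cox6c (0.61), Cox6b1 (0.61) and Cox5a (0.43), with standard errors of 0.12 each, completed the called genes. Cox5a lost its call without the second E11.5 array or either E14.5 array. The other probe sets of Cox5a each gave 0.13 ± 0.13, and that of Cox6c gave 0.16 ± 0.13, none of them called. Those of Cox6a1 (0.68 ± 0.12) and Cox6b1 (0.65 ± 0.12) were called higher.

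**Figure D2:**
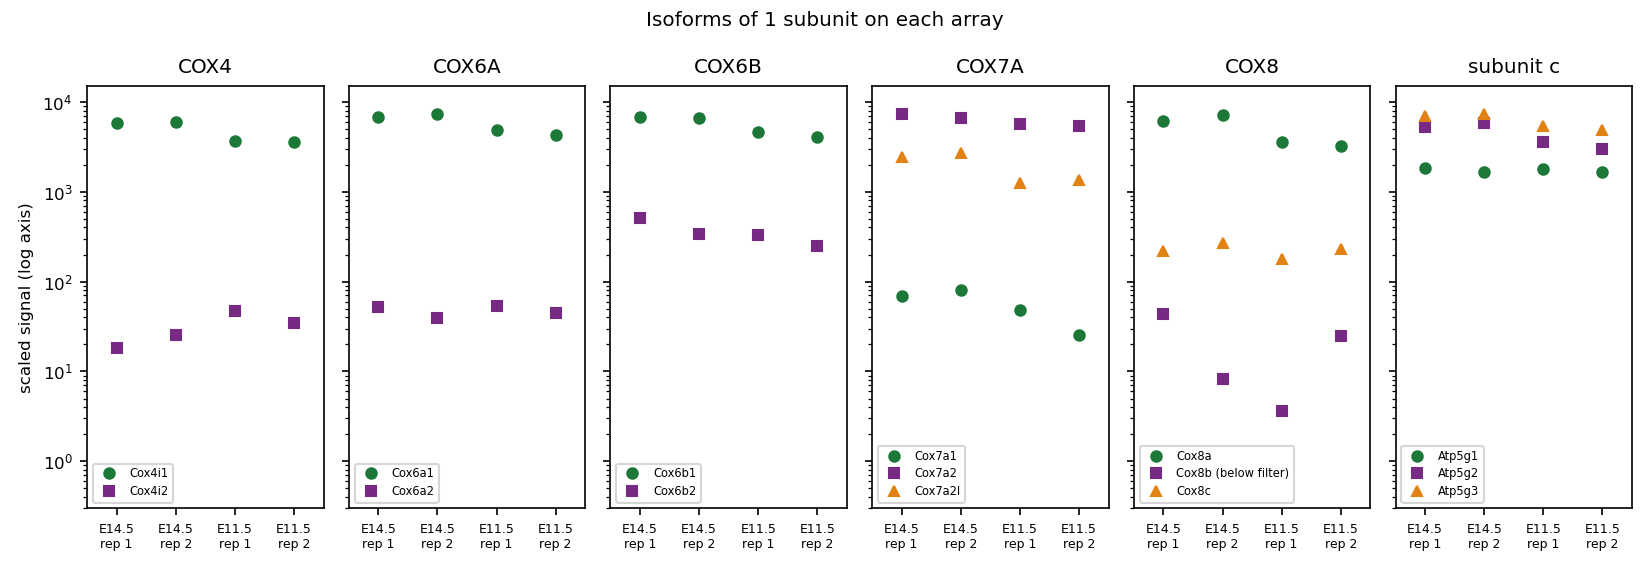
Scaled signal (log axis) of each isoform of 6 subunits on each of the 4 arrays, E14.5 at the left of each panel and E11.5 at the right. Cox4i1, Cox6a1, Cox6b1, Cox7a2l, Cox8a, Atp5g2 and Atp5g3 are higher on both E14.5 arrays and were called. Cox6b2, Cox7a1 and Cox7a2 are also higher on both and were not called. Atp5g1, Cox6a2 and Cox8c overlap between the groups, Cox4i2 is lower on both E14.5 arrays and did not pass, and Cox8b failed the filter. Heights of different genes are not comparable.

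Of 8 genes grouped as tissue-restricted forms, Ndufa4l2 among them, 5 passed the filter. None of the 5 was called, beside 14.3% of all genes called higher and 13.6% called lower. So few genes, with a median signal of 56.0, allow no reading of them as a group. Cox4i2, the lung form, known in other tissues to respond to low oxygen, was at 18.4 and 25.4 in E14.5 cells and 46.5 and 34.7 in E11.5 cells (-0.62 ± 0.35, adjusted p = 0.244). Its groups did not overlap but were close to the pseudocount. Cox7a1, the heart and muscle form, was at 68.8 and 81.4 in E14.5 cells and 48.3 and 25.6 in E11.5 cells (0.85 ± 0.31, adjusted p = 0.0767). Its mean signals, 75.1 in E14.5 cells and 37.0 in E11.5 cells, lay further apart than this value shows, since both are near the pseudocount. Cox6b2, a testis form, was at 510 and 343 in E14.5 cells and 327 and 249 in E11.5 cells (0.53 ± 0.21, adjusted p = 0.101), the groups nearly touching. Cox6a2, the muscle form, overlapped between groups (-0.09 ± 0.30), as did Cox8c, a testis form (0.26 ± 0.19). Cox8b and Cox7b2 failed the filter, with signals of at most 43.4 on any array.

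Cox7a2, the widely made form of the Cox7a subunit, did not pass (0.32 ± 0.12, adjusted p = 0.0724), although its signals of 7246 and 6664 in E14.5 cells lay above 5728 and 5400 in E11.5 cells. Cox7c, at 86.9 and 74.3 in E14.5 cells and 135 and 123 in E11.5 cells, did not pass either (-0.61 ± 0.22, adjusted p = 0.0706). The chosen probe set of Cox7c can cross-hybridize. Its other probe set, with signals of at most 43.0 on any array, gave -0.38 ± 0.34.

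For ATP synthase, 11 of 17 subunits were called higher, with a median of 0.44. In the F1 head, where ATP is formed, 4 of 5 were called. Atp5c1, the central shaft that turns inside the head, was at 4952 and 4953 in E14.5 cells and 3436 and 2961 in E11.5 cells (0.63 ± 0.12, adjusted p = 0.00419). Atp5d (0.47 ± 0.11) and Atp5e (0.39 ± 0.13), at the foot of that shaft, and Atp5a1, the alpha subunit (0.44 ± 0.11), were also called. Atp5b, the catalytic beta subunit, did not pass: its signals of 6244 and 5405 in E14.5 cells and 5002 and 4407 in E11.5 cells did not overlap, at 0.31 ± 0.13 (adjusted p = 0.114).

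Of the peripheral stalk, which holds the head still, Atp5o (0.54 ± 0.11) and Atp5j (0.52 ± 0.12) were called, and Atp5pb (0.22 ± 0.13) and Atp5h (0.26 ± 0.12) were not. Second probe sets gave -0.09 ± 0.21 for Atp5o, 0.01 ± 0.14 for Atp5h and 0.30 ± 0.13 for Atp5pb, none of them called. Of the other membrane subunits, 3 of 5 were called: the small proteins Atp5mpl (0.54 ± 0.12) and Atp5md (0.50 ± 0.13), and Atp5k (0.41 ± 0.12), which helps ATP synthase form dimers. Atp5l (0.25 ± 0.13) and Atp5j2 (0.19 ± 0.14) did not pass. The chosen probe set of Atp5j2 can cross-hybridize, and its unique one was called higher at 0.48 ± 0.13 (adjusted p = 0.0202). Atp5a1, Atp5d, Atp5e, Atp5k and Atp5md lost the call without either E14.5 array, Atp5j without the first and Atp5mpl without the second. Without the second E11.5 array Atp5e and Atp5k lost it, and Atp5md without the first. Each omission of an E14.5 array left 4 of the 17 subunits called, and quantile normalization and cyclic loess left 7.

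The c ring, the rotor that protons turn, is built from 1 protein encoded by 3 genes that differ in their import sequence. Atp5g2 had signals of 5287 and 5870 in E14.5 cells and 3587 and 2996 in E11.5 cells, a difference of 0.76 ± 0.13 (adjusted p = 0.00213). Atp5g3 was at 6904 and 7281 in E14.5 cells and 5389 and 4898 in E11.5 cells (0.46 ± 0.12, adjusted p = 0.0161). Atp5g1 was at 1844 and 1649 in E14.5 cells and 1802 and 1653 in E11.5 cells (0.01 ± 0.13, adjusted p = 0.953). The first pair of genes thus did not overlap between groups while Atp5g1 did; differences between the 3 genes were not tested. The call of Atp5g3 was lost without either E14.5 array, and its difference was 0.07 under quantile normalization and 0.20 under cyclic loess, where that of Atp5g2 was 0.48 and 0.55.

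The assembly factors help to build complexes I and II and are not part of the finished enzymes. None of the 12 was called in either direction in limma, beside 14.3% of all genes called higher and 13.6% called lower. At an unadjusted p under 0.05, 0 of them passed, and the share of all genes at that threshold was not counted. Whether the 12 differ from all genes in this was not tested. A second probe set of Ndufaf4 gave -0.50 ± 0.17 (adjusted p = 0.066). Their median difference was 0.08, beside 0.46 for the 78 subunits, and this contrast between the classes was not tested. Values ran from -0.24 for Ndufaf2 to 0.40 for Ndufaf7 in complex I and from -0.09 for Sdhaf3 to 0.27 for Sdhaf1 in complex II. Ndufaf7, a methyltransferase, was at 193 and 179 in E14.5 cells and 133 and 142 in E11.5 cells (0.40 ± 0.18, adjusted p = 0.154), and its groups did not overlap. Sdhaf4, which binds the flavoprotein before it joins its partner, was at 810 and 831 in E14.5 cells and 647 and 721 in E11.5 cells (0.26 ± 0.14, adjusted p = 0.203). The E14.5 means of the 12 lay between 110 and 821. All 50 higher calls among the 78 tested subunits fell on the 71 with a mean of at least 500 in both groups. Of the assembly factors, only Sdhaf4 had means at that level. The part of signal level in the contrast between subunits and assembly factors was not tested.

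**Figure D3:**
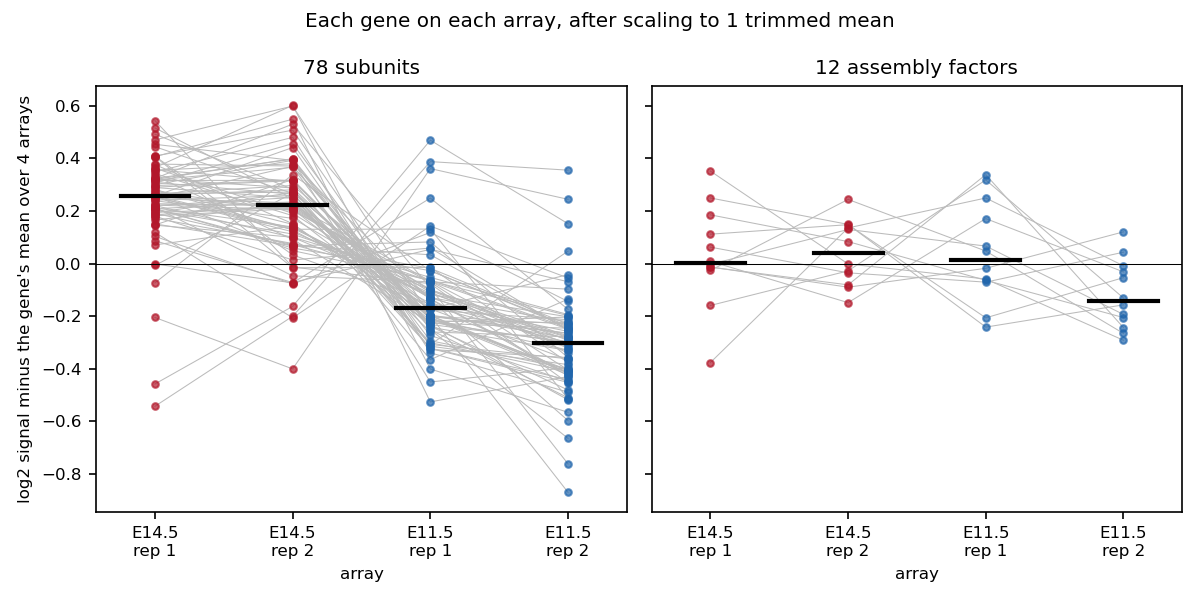
Log2 signal of each gene on each array minus the gene's mean over the 4 arrays, for 78 subunits and 12 assembly factors, with lines joining the values of a gene and black bars at the medians. The subunit medians are 0.26 and 0.22 on the E14.5 arrays and -0.17 and -0.30 on the E11.5 arrays, while those of the assembly factors lie between -0.14 and 0.04.

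Array by array, 78 and 74 of the 90 genes lay above their own mean on the E14.5 arrays, against 17 and 6 on the E11.5 arrays. Summed over the 90 genes, the scaled signal was 251385 and 248002 on the E14.5 arrays and 187211 and 166025 on the E11.5 arrays. The second E14.5 array differed from the first by a median of -0.04, with 51 genes lower. The second E11.5 array differed from the first by a median of -0.17, with 80 of 90 genes lower, so most of these genes differed in one direction within a group as well. The order of the arrays by these genes ran nearly opposite to their brightness before scaling: the brightest array, the second E11.5 one, had the lowest summed signal. The part of brightness in the difference was not tested.

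The choice of scaling changed its size. Quantile normalization gave a median of 0.32 with 43 genes called higher, against 14.4% of all genes, and cyclic loess gave 0.33 with 40, against 14.8%. Cytosolic ribosomal proteins, a brighter set, serve as a comparison that is not matched for signal. On the first E14.5 array 45 of them summed to 283751, against 251385 for the 90 respiratory chain genes. The ribosomal median was 0.45 with 28 of 45 called higher after trimmed-mean scaling. It was 0.04 under quantile normalization and 0.16 under cyclic loess, with 1 called under each, and 1 was called without the second E14.5 array. The respiratory chain genes kept 43 and 40 of their 50 higher calls under these scalings. Bright genes among them varied: quantile normalization gave -0.03 for Uqcrb, -0.06 for Cox7a2 and 0.07 for Atp5g3, but 0.26 for Cox6a1 and 0.66 for Cox8a. The part of signal level in the contrast between the 2 sets was not tested. The tested respiratory chain genes had a median signal of 2006, against 219 over all genes tested, and 82 of 90 lay above that median.

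Other mitochondrial genes are given as context, each count to be read beside the 14.3% of all genes called higher and 13.6% called lower. Of 16 assembly factors of cytochrome oxidase, 5 were called higher, with a median of 0.25; the largest was Sco2, a copper chaperone, at 156 and 116 in E14.5 cells and 71.5 and 52.9 in E11.5 cells (0.99 ± 0.25, adjusted p = 0.016). Without the first E14.5 array Sco2 was not called. Of 17 genes of the tricarboxylic acid cycle, 5 were called higher, led by Pdha1, a subunit of the pyruvate dehydrogenase that feeds the cycle (0.73 ± 0.13). Of 20 carriers and fusion genes, 5 were called higher and 1 lower. Slc25a5, an exchanger of ADP and ATP, was the largest rise (0.73 ± 0.13), and Slc25a13, the aspartate and glutamate carrier, the fall (-1.45 ± 0.22). Under quantile normalization Slc25a5 was at 0.39 and was not called. The mitochondrial ribosome had 6 of 76 called higher and a median of 0.10, led by Mrpl48 (1.17 ± 0.15).

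Of 16 genes that copy and transcribe mitochondrial DNA or regulate its use, 1 was called higher and 3 lower, beside 27.8% of all genes called in either direction, with a median of -0.04. Polg, the mitochondrial DNA polymerase, was at 985 and 1128 in E14.5 cells and 318 and 361 in E11.5 cells (1.60 ± 0.15), the gene called higher. Pprc1, a coactivator of the nuclear respiratory factors, was at 204 and 128 in E14.5 cells and 387 and 365 in E11.5 cells (-1.16 ± 0.21), and Gabpb1 (-0.85 ± 0.16), a partner of GABPA, and Tfam (-0.52 ± 0.15), which packages mitochondrial DNA, also fell. Tfam lost its call without the first E11.5 array and without either E14.5 array. Of 24 genes of protein import, 2 were called higher, led by the processing peptidase Pmpcb (0.70 ± 0.14), and 2 lower, led by the receptor Tomm70a (-0.93 ± 0.18). Of 4 genes of cytochrome c and its partners, Bcs1l, which inserts the Rieske protein, was called (0.59 ± 0.19), and of 7 further complex I assembly factors Acad9 was (0.63 ± 0.17). Both lost the call without the first E11.5 array or the second E14.5 array, and Bcs1l also without the first E14.5 array.

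Glycolysis had 8 genes of 22 called higher and 4 called lower, with a median of 0.0049. Pdk2, a kinase that restrains pyruvate dehydrogenase, was the largest rise (1.28 ± 0.22), and Eno2, the neuronal enolase, the largest fall (-1.86 ± 0.25). Of 13 hypoxia-induced genes 2 were called higher, led by the oxygen sensor Egln3 (1.34 ± 0.24).

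**Figure D4:**
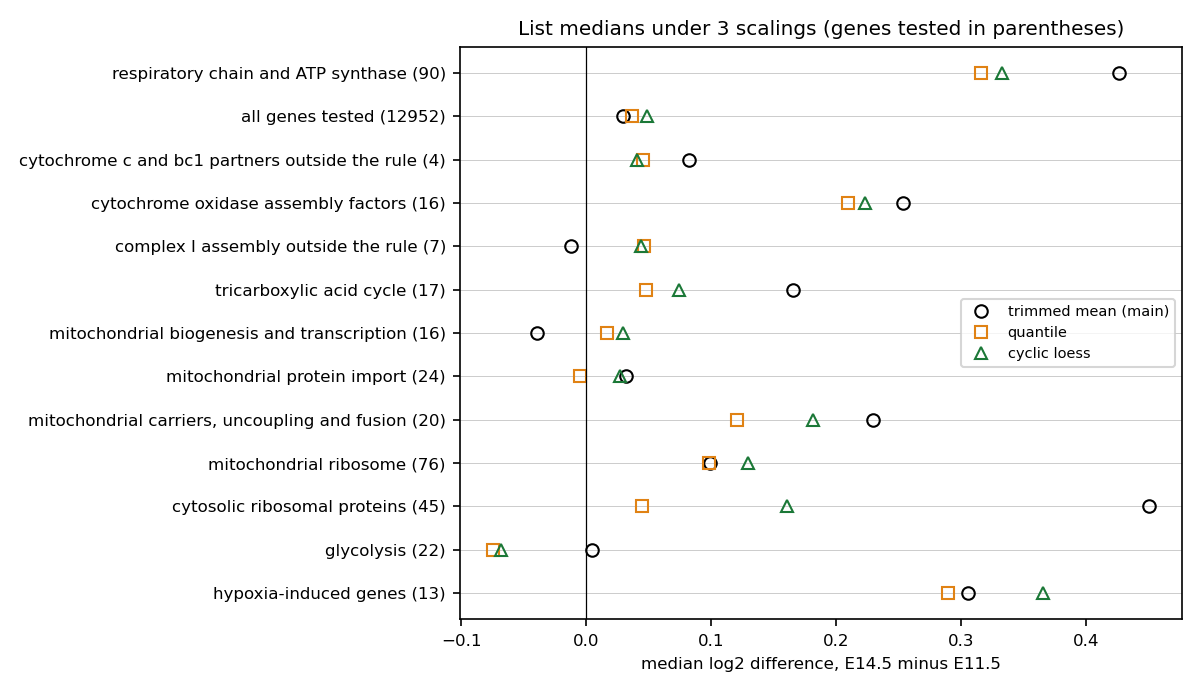
Median log2 difference, E14.5 minus E11.5, of the respiratory chain and ATP synthase genes, of all genes tested and of the context lists under 3 scalings, with the number of genes tested in parentheses. The respiratory chain median stays between 0.32 and 0.43, while that of the cytosolic ribosomal proteins, a brighter set, lies between 0.04 and 0.45.

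Markers of other cells moved with the groups as well. Counts for all marker lists are to be read beside the 14.3% of all genes called higher and 13.6% called lower. Slc1a3 is in both the progenitor and the astrocyte list, and Aldoc is in both the astrocyte and the glycolysis list. Astrocyte markers were called higher for 9 of 9 tested, with summed signals of 21670 and 18480 at E14.5 and 3613 and 4423 at E11.5. Oligodendrocyte precursor markers were called higher for 8 of 8, with sums of 19002 and 20948 at E14.5 and 906 and 686 at E11.5. Microglia markers were called higher for 9 of 10, with sums of 2043 and 1901 at E14.5 and 240 and 360 at E11.5. Neuron markers went the other way: 11 of 12 were called lower, with sums of 5564 and 5360 at E14.5 and 16943 and 17862 at E11.5.

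Fewer genes of other tissues passed the filter. Both tested erythroid markers were called lower, with sums of 24.2 and 18.1 at E14.5 and 772 and 353 at E11.5. Of 7 meningeal markers 3 were called lower (sums of 671 and 593 at E14.5, 1219 and 1221 at E11.5), and of 4 choroid plexus markers 1 was (sums of 181 and 112 at E14.5, 496 and 419 at E11.5). Of 4 endothelial markers, 2 were called higher and 1 lower, with sums of 308 and 360 at E14.5 and 288 and 227 at E11.5. The part of these cells in the differences of the respiratory chain genes was not tested.

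A gene was represented by its probe set with the highest mean signal. Of the 90 genes, 49 had several tested probe sets, and in 39 of them every other probe set had the sign of the representative. A probe set called in the opposite direction was found for 0 genes. The chosen probe set carried a suffix for possible cross-hybridization with related sequences in 19 genes, Cox8a, Ndufs8, Ndufa3 and Cox7a2l among them. Many genes of the respiratory chain are known to have processed pseudogenes. With unique probe sets only, Atp5c1, Ndufa7, Ndufc2, Ndufs8 and Uqcrq lost the call and Atp5j2 gained it. The unique probe sets of Atp5c1 and Uqcrq were dim, with signals of at most 107 and 55.4 on any array. Ndufa13, Atp5d and Atp5e, called higher in the main fit, had no unique probe set that was tested. With the probe sets of a gene averaged, Atp5a1, Atp5o, Cox5a, Ndufa5, Sdhd, Uqcrb, Uqcrc2 and Uqcrq lost the call and Cox7a1, Ndufb9 and Sdhc gained it.

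Of the 51 calls, 25 held whichever single array was left out. By class these were 7 of 8 in complex IV, 10 of 18 accessory and 3 of 5 core subunits of complex I, 2 of 7 in complex III, 3 of 11 in ATP synthase and 0 of 2 in complex II. The calls of Cox4i1, Cox7a2l, Cox8a, Ndufa10, Ndufa3, Ndufa6, Ndufb11 and Uqcr11, 8 genes, held under every alternative tried.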

How the data were processed

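Biotin-labelled cRNA made from the total RNA of each sample by oligo-dT priming was hybridised to 1 Affymetrix array, per the labels. The authors used GCOS, per the submitters' processing notes, to turn the scans into the intensity of each probe set, which is the deposited value on a linear scale. The version and settings of GCOS are not given in the sources, and detection calls were not used here. Groups and replicate numbers came from the sample titles.

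Of 45101 probe sets, 64 controls were set aside; the platform annotation named 1 gene for 34945 of the rest, several for 932 and none for 9160. Names were checked against RefSeq's mouse table through Entrez identifiers (204 unmatched, 0 updated). A further 10 probe sets that name a respiratory chain symbol among several genes were left out. Arrays were scaled to a common 2% trimmed mean (174) by factors of 1.13 and 1.68 for E14.5 and 0.932 and 0.691 for E11.5. A low-signal filter at the 40th percentile of mean signal (27.3) left 27022 probe sets. Python 3.11.15 with pandas 2.3.3 and R 4.3.3 were used. Differences of log2(signal + 12.8), the constant being the 25th percentile of all scaled values, were fitted with limma 3.58.1 (lmFit, eBayes with a variance trend; 2 residual and 7.99 prior degrees of freedom). All adjusted p-values are from this fit, with Benjamini-Hochberg adjustment over the 27022 probe sets; the fit was tested on simulated data. As a check of RNA quality, 3' over 5' control signals were 0.806 to 0.879 for Gapdh and 1.10 to 1.14 for beta-actin. Precision is limited by having only 2 arrays per group.

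Replicate numbers did not pair the arrays: the differences between replicates correlated at 0.0041 between the groups. The members, the gene lists and the tests were chosen with earlier results of these data known. Named genes are the called members up to the 30 largest, the brightest of each class, isoform sets, members below the filter and the largest called gene in each direction of each context list; the other members, and Pax6, Gabpb1 and Tfam, were named after their values were seen. Alternatives were quantile, cyclic loess and median scaling, other pseudocounts and filters, no variance trend, averaged or unique probe sets, a replicate block and leaving out each array.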

Additional observations from a re-analysis of the deposited data

How the results depend on the processing

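The median difference of the respiratory chain genes was above 0 under every alternative tried, from 0.32 under quantile normalization to 0.50 without E11.5 replicate 1. Leaving out 1 array at a time gave 29 to 57 genes called higher (50 with all arrays) and 0 to 1 called lower. By class, the same omissions gave 4 to 11 of ATP synthase, 10 to 20 of the accessory and 4 to 5 of the core subunits of complex I, 0 to 4 of complex II, 2 to 7 of complex III and 7 to 10 of complex IV, and 22 to 80 context genes called higher and 8 to 13 lower. Without the low-signal filter, which adds genes to the adjustment, 32 genes were called higher and 0 lower, with 7 of ATP synthase, 0 of complex II and 2 of complex III. Without the variance trend 10 were called higher and 0 lower, with 0 of ATP synthase, 5 accessory and 1 core subunit of complex I, 0 of complex II, 1 of complex III and 3 of complex IV; the cause was not tested. Quantile normalization gave 7 of ATP synthase, and cyclic loess gave 7 of ATP synthase, 1 of complex II and 4 of complex III. Averaging the probe sets of a gene gave 4 of complex III. Context genes called higher (64) numbered 33 under quantile normalization, 33 under cyclic loess, 23 without the filter and 12 without the trend. Cytosolic ribosomal proteins made up 28 of the 64 and 1 under each of these settings. Context genes called lower (10) numbered 6 without the trend and 16 with averaged probe sets.

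The replicate numbers did not pair the arrays. With the replicate block 50 genes were called higher, 47 of them shared with the fit without it, and 1 lower.

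Sign changes were seen in 25 single-gene values. Under quantile normalization they were Atp5g1 (-0.047), Cox7a2 (-0.057), Uqcrb (-0.030), Atp5b (-0.030), Atp5j2 (-0.0041) and Ndufab1 (-0.043), and under cyclic loess Atp5g1 (-0.061) and Ndufab1 (-0.062). With averaged probe sets they were Ndufa12 (0.040) and Ndufab1 (-0.027), and with unique probe sets Ndufab1 (-0.065) and Uqcrq (-0.00019). Leaving out 1 array at a time, values on both sides of 0 were seen for Atp5g1 (-0.065 to 0.094), Ndufab1 (-0.11 to 0.16), Ndufa12 (-0.29 to 0.14), Cox6a2 (-0.25 to 0.075), Ndufaf1 (-0.0032 to 0.26), Ndufaf2 (-0.50 to 0.015), Ndufaf4 (-0.41 to 0.038), Sdhaf2 (-0.030 to 0.084) and Sdhaf3 (-0.39 to 0.20). Of these genes Uqcrb and Uqcrq were called with all arrays. Of the other single-gene values, 1390 stayed on their side of the threshold, 170 lost it and 25 gained it.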
